A study of Homo sapiens with 12 samples.

Results

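The Notch genes followed here are 9 genes chosen by name for their place in the pathway, out of 55765 genes counted in T47D cells. They are the receptors NOTCH1, NOTCH2 and NOTCH3, the ligands JAG1 and JAG2, and the target genes HES1, HES4, HEY1 and HEY2. The choice was made with earlier results of these data known. T47D is an established human breast cancer line of luminal type that carries the progesterone receptor, and every group was made from this 1 line. The 12 libraries form 4 groups of 3 biological replicates: siPRMT1 with R5020, siPRMT1 with ethanol, siCT with R5020, and siCT with ethanol. siPRMT1 is an siRNA against PRMT1, a protein arginine methyltransferase, and siCT is the control siRNA. R5020 is a synthetic progestin, given at 10 nM for 6 h, and ethanol is its vehicle, given for the same time. All 4 groups had received an siRNA, and none was left untransfected. The comparisons ask whether R5020 moved the Notch genes with and without PRMT1 depletion, and whether depletion itself moved them.

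Notch signalling passes between touching cells. A ligand of the Jagged or Delta type on 1 cell pulls on a Notch receptor on its neighbour, the receptor is cut by an ADAM protease and then by gamma-secretase, and the freed intracellular domain enters the nucleus. There it joins the DNA-binding protein RBPJ and a Mastermind coactivator, and certain genes of the HES and HEY families, which encode transcriptional repressors, are switched on. In the mammary gland Notch receptors take part in the choice of luminal fate.

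RBPJ binds DNA at sites with the core TGGGAA, and the start regions of HES1, HES4 and HEY2 carry this core, so these are printed beside that of NOTCH2, which has none and whose mRNA gave the highest count of the receptors. The sequences are RefSeq's, on GRCh38.p14, 5′ to 3′ on the strand of the gene, with each TGGGAA core in capitals. The HES1 stretch is chr3:194136038-194136147 on the plus strand, the HES4 stretch is chr1:1000098-1000207 on the minus strand, and the NOTCH2 stretch is chr1:120069663-120069772 on the minus strand. These 3 hold the 110 bases before the start. The HEY2 stretch, chr6:125749532-125749641 on the plus strand, holds the last 100 bases before the start and the first 10 after it, since its core spans the start.
HES1: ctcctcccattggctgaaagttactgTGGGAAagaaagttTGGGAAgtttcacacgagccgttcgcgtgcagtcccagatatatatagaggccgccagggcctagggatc
HES4: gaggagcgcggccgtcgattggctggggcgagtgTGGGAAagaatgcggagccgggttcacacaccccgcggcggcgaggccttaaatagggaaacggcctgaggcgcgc
HEY2: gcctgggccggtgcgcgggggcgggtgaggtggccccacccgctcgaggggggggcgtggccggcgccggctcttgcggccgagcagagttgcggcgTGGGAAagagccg
NOTCH2: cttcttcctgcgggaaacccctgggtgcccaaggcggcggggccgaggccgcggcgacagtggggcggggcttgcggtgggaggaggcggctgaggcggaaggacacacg

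The 2 HES1 cores were both on the strand of the gene, and their first bases lay 84 and 70 bases before the start. The first base of the HES4 core lay 76 bases before the start, and that of the printed HEY2 core 3 bases before it. Sites with other letters were not searched as RBPJ cores, so pairs of sites are not described. A further HEY2 core, outside the printed stretch, was on the minus strand 213 bases before the start. Over windows of 250 bases before to 50 bases after the start, with both strands searched, TGGGAA was found in 3 of the 8 Notch genes with a window in the table and in 24% of all 35116 windows. HES1 and HEY2 each held 2 cores, as 3.8% of all windows held 2 or more. The longer form GTGGGAA, which contains the shorter core, was found in the same 3 genes and in 6.25% of all windows. The progestin and glucocorticoid receptor element, with the arms GNACA and TGTNC set 3 bases apart, was in none of the 8 windows and in 0.39% of all. The single arm AGAACA was in none of the 8 and in 14.8% of all. These matches are descriptions of the letters in a window, and they show neither binding nor its absence.

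Total counts ranged from 26783525 to 34120937 per library. PRMT1 mRNA stood at 6.89 to 8.38 CPM (the count relative to the scaled total of its library) in the 6 siPRMT1 libraries and at 29.7 to 50.7 CPM in the 6 siCT libraries. All 10 luminal markers listed, such as KRT8 and FOXA1, were above 1 CPM, and the 5 endothelial markers analysed summed to at most 0.219 CPM. The summed luminal markers ranged from 11744 to 12539 CPM in siPRMT1 R5020, 15648 to 16226 in siPRMT1 ethanol, 6492 to 7700 in siCT R5020 and 7702 to 10523 in siCT ethanol, and their part in the results was not tested. COL1A1 of 5 fibroblast markers and VIM of 6 basal or mesenchymal markers were above 1 CPM. Replicate 3 of siCT ethanol and replicate 1 of siCT R5020 stood apart, with 59.3% and 52.4% of counts on mitochondrially encoded genes against 31.3 to 38.3% in the other 10 libraries. They also held 1519 and 948 CPM of the nuclear RNA MALAT1, against 251 to 486 CPM. Each of these libraries had the highest CPM of its group for 8 of the 9 Notch genes and the lowest for HEY2. Several results of the Notch genes are therefore given with and without the pair, or without 1 of its libraries. Leaving out the pair takes 1 library from each siCT group of 3, and the spread shared by all groups is then estimated anew. Values of the other pathway genes are from all 12 libraries unless libraries left out are named.

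In a bulk library, fewer cells with a transcript and less of it per cell cannot be told apart. Of the 9 genes, 8 had enough counts to be tested. HEY1, a target gene of the hairy-related family, had 0 to 8 counts in each of the 12 libraries and was not tested. Its counts were 3, 8 and 7 in siPRMT1 R5020, 2, 6 and 2 in siPRMT1 ethanol, 8, 6 and 4 in siCT R5020 and 1, 0 and 6 in siCT ethanol, and the 0 allows up to 3 counts. The 4 groups overlapped.

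**Figure D1:**
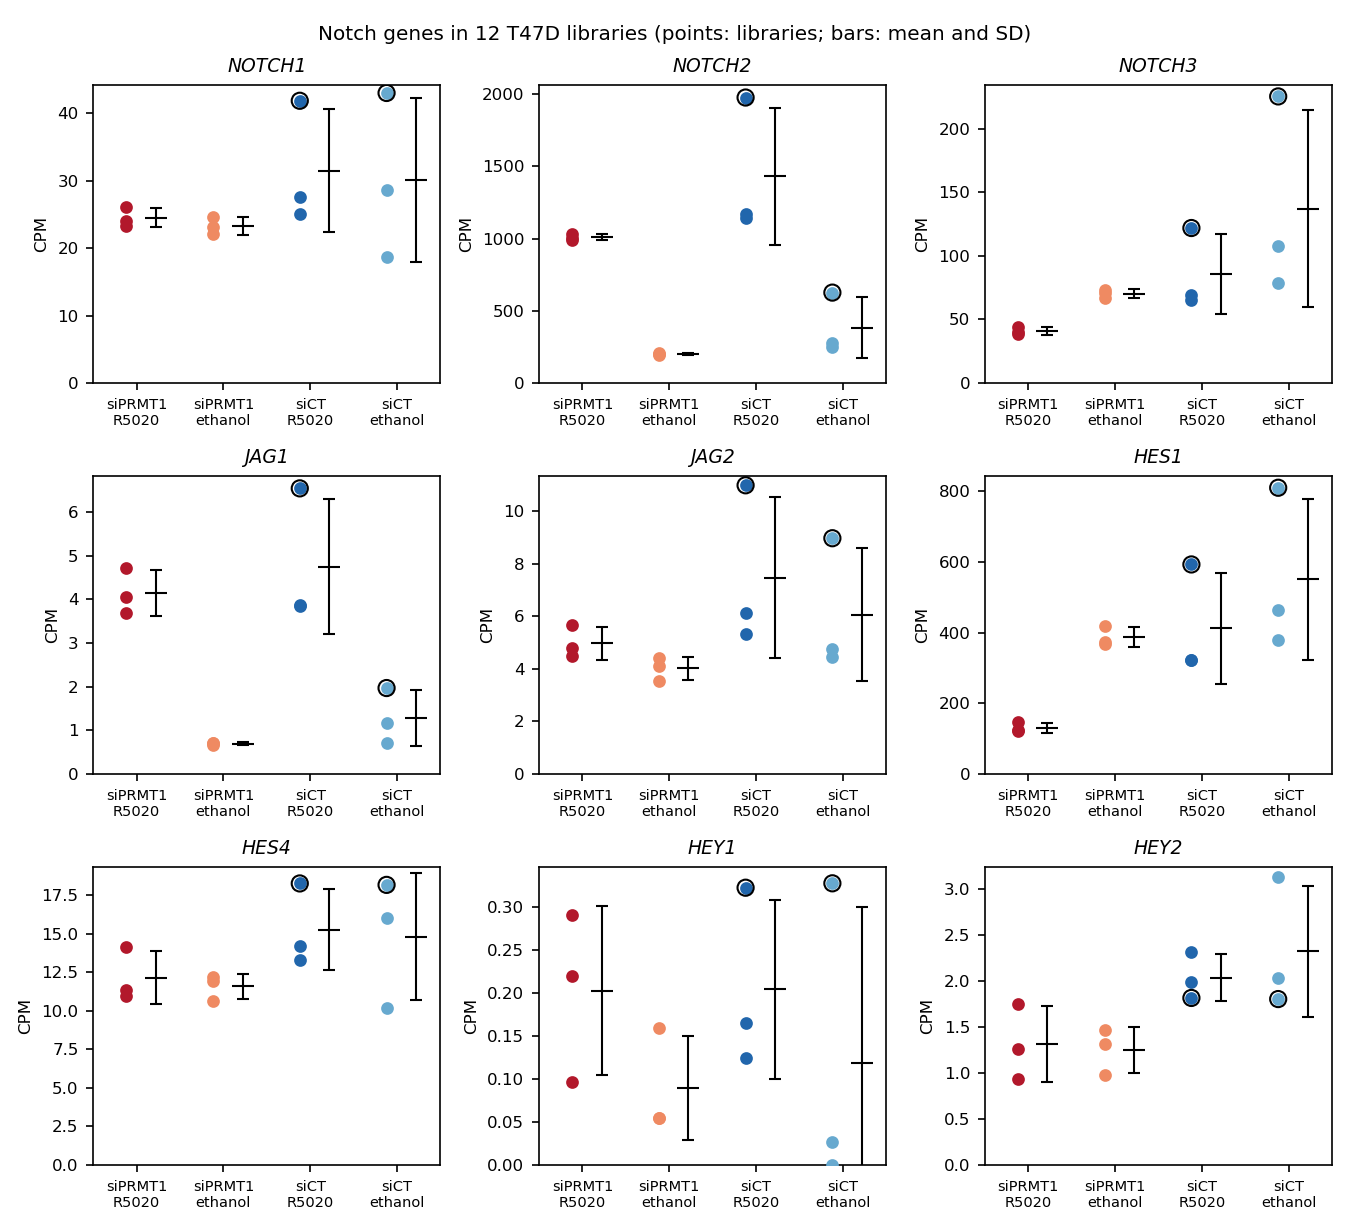
CPM of the 9 Notch genes in each of the 12 libraries (y axis, 1 scale per gene, from 0), by group (x axis); points are libraries, bars are the mean and SD of 3 libraries, cut at 0, and ringed points are the libraries rich in mitochondrial counts. NOTCH2 and JAG1 sit higher in both R5020 groups than in either ethanol group, and HES1 is at 120 to 147 CPM in siPRMT1 R5020, under every other library.

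Read per length of gene, HES1 mRNA was the most abundant of the 9 in all 4 groups and HEY1 the least. In siPRMT1 R5020, HES1 averaged 63.5 ± 6.90 CPM per kilobase of exon and NOTCH2 59.98 ± 1.26 (SD, n = 3 here and in all means by group), followed by HES4 at 10.9 ± 1.54, NOTCH3 at 4.35 ± 0.326, NOTCH1 at 2.36 ± 0.136, JAG2 at 0.776 ± 0.0959, HEY2 at 0.480 ± 0.149 and JAG1 at 0.446 ± 0.0569. In siPRMT1 ethanol, HES1 averaged 187 ± 13.9 and NOTCH2 12.02 ± 0.376 CPM per kilobase, while JAG1 stood at 0.0746 ± 0.00363. In siCT R5020, HES1 averaged 199.7 ± 75.9 and NOTCH2 85.1 ± 28.1 CPM per kilobase, and in siCT ethanol they averaged 267 ± 111 and 22.8 ± 12.5. HES1 and NOTCH2 in siPRMT1 R5020, and HEY2 and JAG1 there, did not differ beyond their spread. By group mean, each Jagged ligand stood below each of the 3 receptors in CPM per kilobase in all 4 groups.

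NOTCH2, the receptor on chromosome 1 of GRCh38 (119911553 to 120069626, minus strand), rose with R5020 in both kinds of cells. It had 991, 1032 and 1001 CPM in siPRMT1 R5020, against 199.95, 209 and 197 CPM in siPRMT1 ethanol. In siCT cells it had 1976, 1144 and 1170 CPM with R5020, against 249, 275 and 626 CPM with ethanol. All 6 R5020 libraries lay above all 6 ethanol libraries. The rise was 4.99-fold in siPRMT1 cells (log2 fold change 2.32 ± 0.33 SE, adjusted p = 2.48e-04) and 3.73-fold in siCT cells (1.90 ± 0.33, adjusted p = 0.00130), from the quasi-likelihood test of edgeR, with adjustment by Benjamini-Hochberg over 17727 genes, as for every adjusted p here unless another tool is named. Without the mitochondria-rich pair, the rise on the log2 scale was 2.31 ± 0.07 in siPRMT1 cells and 2.14 ± 0.08 in siCT cells. The difference of these responses, siPRMT1 minus siCT, was 0.42 ± 0.45 on the log2 scale and was not called (adjusted p = 1.00).

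NOTCH2NL is a partial copy of NOTCH2 whose reads can be shared with it, so both values are uncertain to that extent. It had 22.8, 25.4 and 23.2 CPM in siPRMT1 R5020, 5.79, 6.41 and 7.21 in siPRMT1 ethanol, 16.2, 17.0 and 18.2 in siCT R5020, and 3.98, 4.72 and 3.94 in siCT ethanol. Its response to R5020 was 1.88 ± 0.14 on the log2 scale in siPRMT1 cells and 2.02 ± 0.15 in siCT cells (adjusted p = 1.10e-06 and 8.15e-07). With siPRMT1 it was higher than with siCT by 0.62 ± 0.14 in ethanol and 0.47 ± 0.14 in R5020 (adjusted p = 0.00709 and 0.0238), while NOTCH2 had the opposite sign. The R5020 call of NOTCH2NL with siPRMT1 was lost without replicate 1 or 2 of siCT R5020 or any of the siPRMT1 R5020 libraries (0.42 to 0.50, adjusted p = 0.0531 to 0.101). Further alternatives lost it as well, and 12 of 19 called it. The ethanol call was kept by 16 of 19.

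NOTCH1 and NOTCH3 had no called response to R5020. NOTCH1, the founding human receptor of the family, had 23.3, 26.1 and 24.0 CPM in siPRMT1 R5020, 22.1, 24.6 and 23.2 in siPRMT1 ethanol, 41.8, 27.6 and 25.0 in siCT R5020, and 28.6, 18.7 and 43.0 in siCT ethanol. The groups overlapped, and its log2 fold change with R5020 was 0.07 ± 0.26 in siPRMT1 cells and 0.07 ± 0.25 in siCT cells. NOTCH3 had 44.3, 39.9 and 38.4 CPM in siPRMT1 R5020, against 66.8, 70.9 and 73.3 CPM in siPRMT1 ethanol, and these did not overlap. In siCT cells it had 122, 69.6 and 65.7 CPM with R5020, against 108, 78.6 and 225 CPM with ethanol, which overlapped. Its log2 fold change was -0.78 ± 0.33 in siPRMT1 cells (adjusted p = 0.143) and -0.68 ± 0.32 in siCT cells (adjusted p = 0.215). Without the mitochondria-rich pair, NOTCH3 was called lower with R5020 in siPRMT1 cells (-0.79 ± 0.11, adjusted p = 1.82e-04) and in siCT cells (-0.47 ± 0.13, adjusted p = 0.0277). Leaving out replicate 3 of siCT ethanol alone also gave the call in siPRMT1 cells (-0.82, adjusted p = 0.0105).

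The make-up of the receptor mRNA differed between R5020 and ethanol. NOTCH2 made up 89.9 ± 0.447% of the summed CPM per kilobase of the 3 receptors in siPRMT1 R5020 and 55.3 ± 1.26% in siPRMT1 ethanol. In siCT cells its share was 87.5 ± 0.517% with R5020 and 56.5 ± 5.32% with ethanol. NOTCH3 held 6.53 ± 0.543% in siPRMT1 R5020 and 34.4 ± 1.26% in siPRMT1 ethanol, and 9.32 ± 0.424% in siCT R5020 and 35.9 ± 4.02% in siCT ethanol. NOTCH1 held 3.53 ± 0.139% and 10.3 ± 0.283% in siPRMT1 cells with R5020 and with ethanol, and 3.15 ± 0.224% and 7.54 ± 1.71% in siCT cells. As a share within each library, this measure does not depend on the scaling of the libraries, and no share of an R5020 library overlapped that of an ethanol library. With 3 libraries against 3, an exact two-sided permutation test cannot give a p below 0.1, so no p is given.

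**Figure D2:**
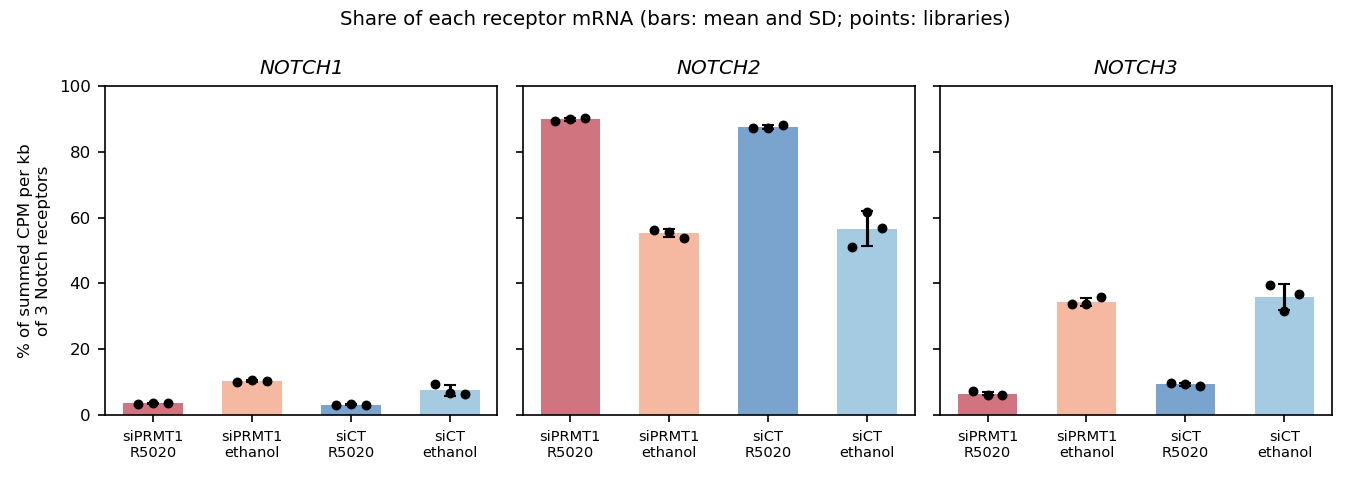
Share of each receptor (y axis, % of the summed CPM per kilobase of NOTCH1, NOTCH2 and NOTCH3) by group (x axis); bars are means from 0, error bars the SD and points the 3 libraries of each group. NOTCH2 stands at 87.1 to 90.3% in the 6 R5020 libraries and at 51.0 to 61.7% in the 6 ethanol libraries.

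Of the ligands, JAG1 rose with R5020 and JAG2 was not called. JAG1, on chromosome 20 of GRCh38 (10637684 to 10673999, minus strand), had 3.68, 4.04 and 4.73 CPM in siPRMT1 R5020, against 0.655, 0.719 and 0.707 CPM in siPRMT1 ethanol. In siCT cells it had 6.54, 3.86 and 3.84 CPM with R5020, against 1.17, 0.708 and 1.97 CPM with ethanol. Every R5020 library was above every ethanol library. The rise was 5.96-fold in siPRMT1 cells (log2 fold change 2.57 ± 0.33, adjusted p = 9.29e-05) and 3.84-fold in siCT cells (1.94 ± 0.32, adjusted p = 8.50e-04). It was 2.57 ± 0.19 and 2.01 ± 0.22 in siPRMT1 and siCT cells without the mitochondria-rich pair. The responses differed by 0.63 ± 0.45, siPRMT1 minus siCT (adjusted p = 1.00). These levels rest on 24 to 162 counts per library, and an antisense gene shares exonic sequence with JAG1 in GENCODE 29, so that without a stated strand setting its reads cannot be told apart from those of JAG1.

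JAG2, the other Jagged ligand, had 5.65, 4.77 and 4.47 CPM in siPRMT1 R5020, 3.55, 4.12 and 4.41 in siPRMT1 ethanol, 10.98, 6.12 and 5.31 in siCT R5020, and 4.74, 4.45 and 8.97 in siCT ethanol. Its log2 fold change with R5020 was 0.30 ± 0.30 in siPRMT1 cells and 0.32 ± 0.30 in siCT cells (adjusted p = 0.624 and 0.588). A processed transcript overlaps its exons on the same strand.

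Among the target genes, HES1 fell with R5020 in siPRMT1 cells. HES1, a repressor and a widely used readout of Notch activity, is on chromosome 3 of GRCh38 (194136145 to 194138732, plus strand) and carries the 2 RBPJ cores printed above. It had 120, 147 and 125 CPM in siPRMT1 R5020, against 368, 373 and 420 CPM in siPRMT1 ethanol, with no overlap. The fall was 2.95-fold (log2 fold change -1.56 ± 0.29, adjusted p = 0.00223). In siCT cells it had 593, 322 and 321 CPM with R5020, against 380, 463 and 809 CPM with ethanol. These overlapped, and the log2 fold change was -0.42 ± 0.29 (adjusted p = 0.422), while without the mitochondria-rich pair it was -0.40 ± 0.12 and was called lower (adjusted p = 0.0377).

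The difference between these HES1 responses, siPRMT1 minus siCT, was -1.14 ± 0.41 on the log2 scale. It had an unadjusted p of 0.0147 and was not called over all genes (adjusted p = 0.824). It was called without the mitochondria-rich pair (-1.17 ± 0.16, adjusted p = 0.00806) and by limma with voom sample quality weights (-1.11, adjusted p = 0.0428), among 18 alternatives run. Over those alternatives the value ran from -1.60, without replicate 3 of siCT ethanol, to -0.79, without replicate 1 of siCT R5020, with adjusted p from 0.00806 to 1.00. These are the libraries of the mitochondria-rich pair, each left out alone. DESeq2 did not call it.

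**Figure D3:**
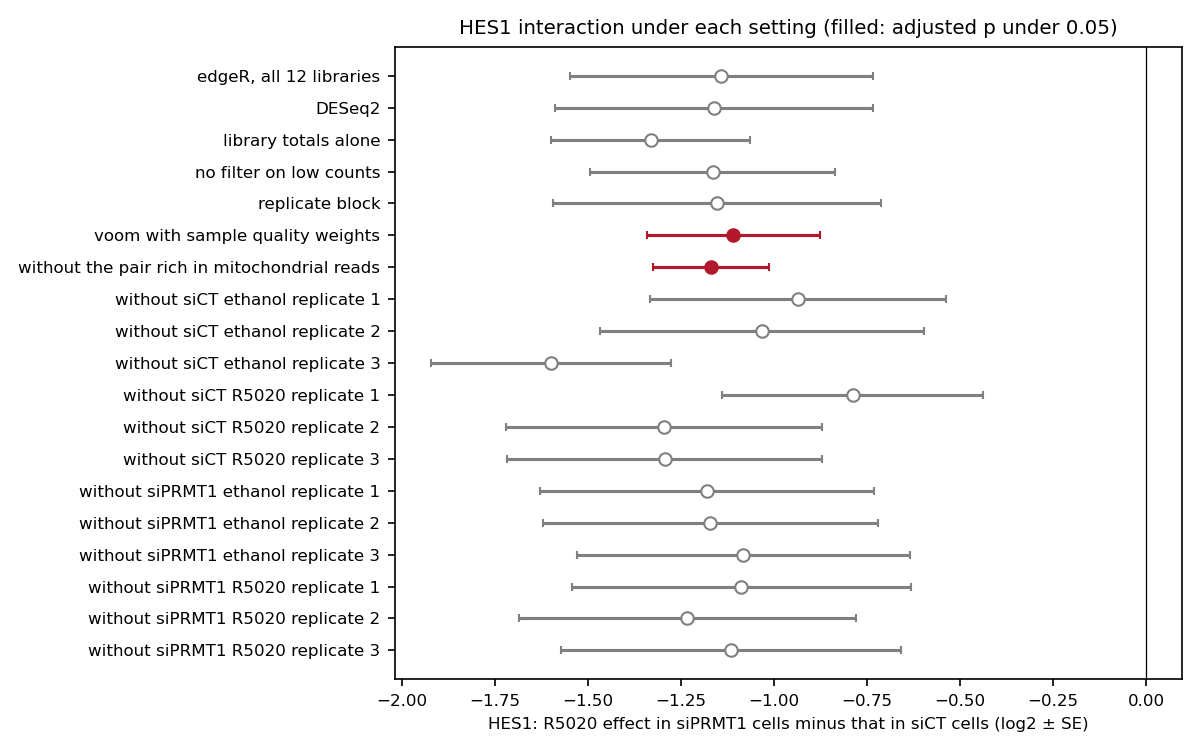
Difference between the HES1 responses to R5020, siPRMT1 minus siCT cells (x axis, log2 ± SE), in the edgeR fit and under each of 18 alternatives (y axis); filled points have an adjusted p under 0.05. All values lie below 0, between -1.60 and -0.79, and 2 alternatives are called.

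HES4 and HEY2 showed no called response to R5020. HES4, a paralogue of HES1, had 14.1, 10.9 and 11.4 CPM in siPRMT1 R5020, 10.6, 11.9 and 12.2 in siPRMT1 ethanol, 18.2, 13.3 and 14.2 in siCT R5020, and 16.0, 10.2 and 18.2 in siCT ethanol. Its log2 fold change with R5020 was 0.07 ± 0.21 in siPRMT1 cells and 0.05 ± 0.21 in siCT cells. HEY2, a repressor of the hairy-related family, had 0.937, 1.75 and 1.26 CPM in siPRMT1 R5020, 1.31, 1.46 and 0.979 in siPRMT1 ethanol, 1.82, 1.99 and 2.31 in siCT R5020, and 3.13, 2.04 and 1.80 in siCT ethanol. Its log2 fold change with R5020 was 0.06 ± 0.29 in siPRMT1 cells and -0.21 ± 0.27 in siCT cells. The R5020 and ethanol libraries of these genes overlapped in both kinds of cells.

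In siPRMT1 cells, R5020 gave 2 higher calls and 1 lower call among the 8 tested Notch genes, where 9.30% of all 17727 genes were called higher and 6.08% lower (15.4% in all). There, 4 of the 8 and 25.3% of all genes had an unadjusted p under 0.05. In siCT cells it gave 2 higher calls and 0 lower calls, where 7.59% of all genes were called higher and 5.43% lower (13.0% in all). At an unadjusted p under 0.05, edgeR gave 2 higher and 0 lower in siCT cells (25.3% of all genes), and DESeq2 and voom each called 2 higher and 0 lower, where DESeq2 called 15.8% of all genes and voom 11.6%. The median log2 fold change of the 8 genes was 0.07 in siPRMT1 cells and 0.06 in siCT cells, against -0.004 and -0.04 over all genes.

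**Figure D4:**
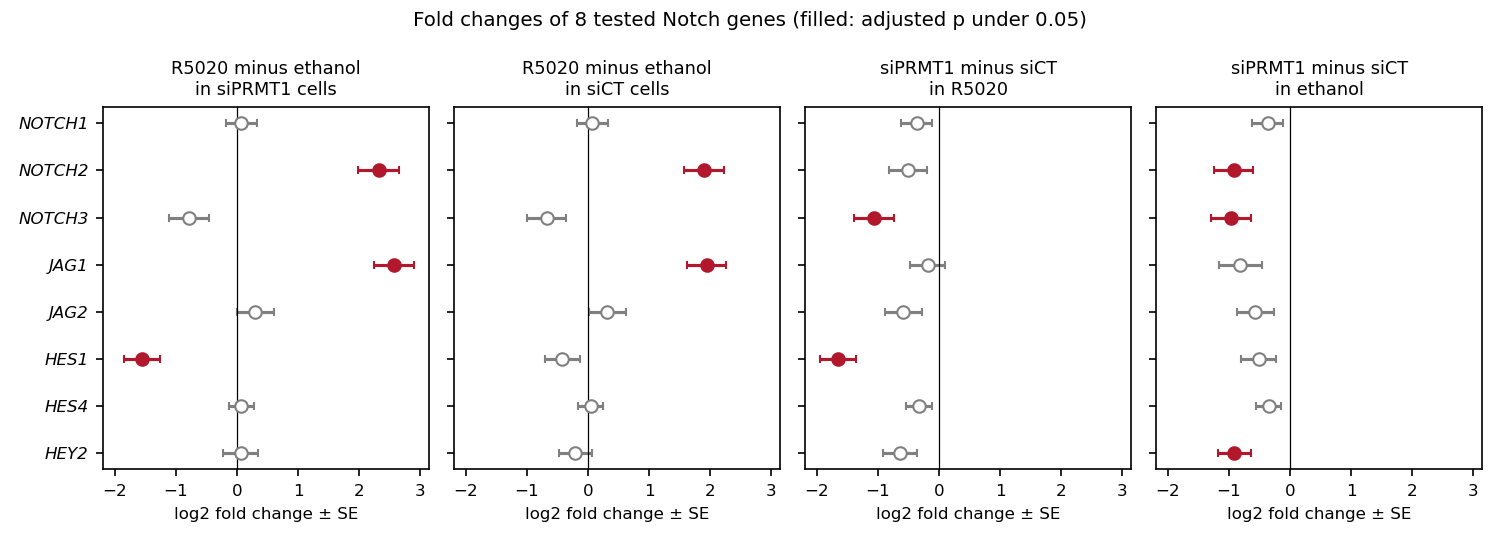
log2 fold changes (x axis, ± SE) of the 8 tested Notch genes (y axis) for R5020 minus ethanol in siPRMT1 and siCT cells and for siPRMT1 minus siCT in R5020 and ethanol; filled points have an adjusted p under 0.05. NOTCH2 and JAG1 lie near 2 to 2.6 in both R5020 panels, HES1 is called for R5020 in siPRMT1 cells and for siPRMT1 in R5020, and all points of both siPRMT1 panels lie below 0, although without the mitochondria-rich pair JAG1 stands at 0.12 in R5020.

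PRMT1 depletion went with lower values of the receptors NOTCH2 and NOTCH3 and of the target HEY2 in ethanol. Relative to siCT ethanol, the log2 fold change in siPRMT1 ethanol was -0.92 ± 0.32 for NOTCH2 (adjusted p = 0.0410), -0.96 ± 0.33 for NOTCH3 (adjusted p = 0.0381) and -0.91 ± 0.28 for HEY2 (adjusted p = 0.0237). The siPRMT1 libraries lay below all 3 siCT libraries for each of these genes, from the CPM values above. These are 3 lower calls and 0 higher calls among 8 genes, where 19.2% of all genes were called lower and 13.6% higher (32.8% in all). At an unadjusted p under 0.05, edgeR gave 4 lower and 0 higher (44.3% of all genes), and DESeq2 and voom gave 3 lower calls and 0 higher, where DESeq2 called 36.9% of all genes and voom 30.7%. All 8 tested genes had negative values, the median being -0.69 against -0.07 over all genes. With library totals alone they stayed negative, and without replicate 3 of siCT ethanol NOTCH1 stood at 0.04.

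The size of the NOTCH2 and NOTCH3 differences in ethanol depended on replicate 3 of siCT ethanol, the mitochondria-rich library with 626 CPM of NOTCH2 and 225 CPM of NOTCH3. Without it the log2 fold changes were -0.31 for NOTCH2 (adjusted p = 0.265) and -0.34 for NOTCH3 (adjusted p = 0.263). Without the pair together they were -0.36 ± 0.07 and -0.39 ± 0.12 and were called (adjusted p = 0.00186 and 0.0202). HEY2, which is lowest in these libraries, stood at -1.04 ± 0.26 without the pair (adjusted p = 0.00788), but at -0.63 and not called (adjusted p = 0.108) without replicate 1 of siCT ethanol. It was also lost without replicate 1 or 3 of siPRMT1 ethanol (-0.94 and -0.76, adjusted p = 0.0627 and 0.102). Further alternatives lost it as well, and 14 of 19 called HEY2 in ethanol. The calls of NOTCH2 and NOTCH3 were lost without any 1 of the 6 siPRMT1 libraries as well, at -0.99 to -0.90 (adjusted p = 0.0521 to 0.112).

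The other tested Notch genes were not called with siPRMT1 in ethanol. NOTCH1 stood at -0.36 ± 0.26, JAG1 at -0.82 ± 0.35, JAG2 at -0.57 ± 0.30, HES1 at -0.51 ± 0.29 and HES4 at -0.35 ± 0.21. Without replicate 2 of siCT ethanol, NOTCH1 (-0.62, adjusted p = 0.0377), JAG1 (-1.12, adjusted p = 0.0162) and HES4 (-0.56, adjusted p = 0.0191) were called lower as well.

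In R5020, PRMT1 depletion went with lower HES1 and NOTCH3. HES1 was 3.14-fold lower in siPRMT1 R5020 than in siCT R5020 (log2 fold change -1.65 ± 0.29, adjusted p = 0.00191), and its 3 siPRMT1 libraries lay below all other 9 libraries. The value was -1.28 ± 0.11 without the mitochondria-rich pair (adjusted p = 1.03e-05) and was called under all 19 alternatives. NOTCH3 was 2.10-fold lower (-1.07 ± 0.33, adjusted p = 0.0299). NOTCH3 was called under 15 of 19 alternatives and not without replicate 1 of siCT R5020 (-0.73, adjusted p = 0.126) or without replicate 1, 2 or 3 of siPRMT1 R5020 (-1.13 to -1.03, adjusted p = 0.0688 to 0.0945).

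NOTCH2 stood at -0.50 ± 0.32 and HEY2 at -0.64 ± 0.28 in the same comparison, neither of them called (adjusted p = 0.255 and 0.109), although their siPRMT1 libraries lay below the siCT libraries. NOTCH2 was called without replicate 3 of siCT ethanol (-0.51, adjusted p = 0.0435), a library outside this comparison. JAG1 was at -0.18 ± 0.29, JAG2 at -0.58 ± 0.30, NOTCH1 at -0.36 ± 0.26 and HES4 at -0.33 ± 0.21, and JAG1 stood at 0.12 ± 0.17 without the mitochondria-rich pair. These are 2 lower calls and 0 higher calls, where 14.2% of all genes were called lower and 11.5% higher (25.7% in all). Taking an unadjusted p under 0.05, edgeR gave 3 lower and 0 higher (39.3% of all genes), and at its adjusted p DESeq2 called 2 lower, where it called 30.1% of all genes. With voom 3 were called lower, where it called 55.7% of all genes (28.3% lower). The median of the 8 genes was -0.54, against -0.03 over all genes.

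The difference between the responses to R5020 was called for 0 of the 8 genes by edgeR and DESeq2 and for HES1 by voom, where edgeR called 0.0790% of all genes, DESeq2 0.485% and voom 0.367%. Its unadjusted p was under 0.05 for 1 of the 8, HES1, and for 4.06% of all genes. The responses and the siPRMT1 differences share libraries, so that their values are not independent of each other.

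The authors' deposited table gave the same signs for the genes called here. In the authors' deposited table, R5020 in siPRMT1 cells had log2 fold changes of 2.31 for NOTCH2, 2.38 for JAG1 and -1.55 for HES1, and it gave NOTCH3 a value of -0.78 with an adjusted p of 1.08e-23. With siPRMT1 in ethanol, the authors' deposited table gave -0.78 for NOTCH2 and -0.81 for NOTCH3 (the authors' adjusted p = 0.0428 and 0.0394). For HEY2 it gave -0.75 there with an adjusted p of 0.0764, so HEY2 was under 0.05 here and not in the authors' values. With siPRMT1 in R5020 it gave -1.52 for HES1 and -0.98 for NOTCH3.

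The rest of the pathway was followed in 70 genes, of which 57 were tested. In siPRMT1 cells R5020 raised 7 of the 57 and lowered 2, and in siCT cells it raised 4 and lowered 2. Their median log2 fold changes were 0.04 and -0.05, against -0.004 and -0.04 over all genes. With siPRMT1, 3 of the 57 were higher and 18 lower in ethanol, and 6 were higher and 11 lower in R5020, with medians of -0.43 and -0.21 against -0.07 and -0.03 over all genes. Over all genes, R5020 gave 9.30% higher and 6.08% lower calls in siPRMT1 cells, and 7.59% higher and 5.43% lower in siCT cells. With siPRMT1, 13.6% of all genes were called higher and 19.2% lower in ethanol, and 11.5% higher and 14.2% lower in R5020.

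Of the 11 other receptors and ligands, 3 were tested. DLL4, a Delta-type ligand best known from endothelium, had 15, 3 and 13 counts in siPRMT1 R5020, 2, 3 and 2 in siPRMT1 ethanol, 60, 47 and 45 in siCT R5020, and 6, 5 and 7 in siCT ethanol. It rose with R5020 in siCT cells (log2 fold change 2.99 ± 0.46, adjusted p = 5.78e-04). In siPRMT1 cells the value was 2.36 ± 0.64 (adjusted p = 0.0227), from 7 counts in all in ethanol, and it was called under 13 of 18 alternatives. The call was lost without replicate 1, 2 or 3 of siPRMT1 ethanol or without replicate 1 or 3 of siPRMT1 R5020 (2.02 to 2.56, adjusted p = 0.0576 to 0.110). In R5020 it was lower with siPRMT1 than with siCT (-2.30 ± 0.42, adjusted p = 0.00232). None of the 5 endothelial markers analysed had more than 4 counts in a library.

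DLL1, another Delta-type ligand, was lower with siPRMT1 in ethanol (-1.53 ± 0.33, adjusted p = 0.00475) and stood at -0.84 ± 0.34 in R5020 (adjusted p = 0.0871). Its ethanol call held under 19 of 19 alternatives, at -1.82 to -0.96. The siCT ethanol libraries had 3.52, 2.48 and 7.16 CPM of DLL1, the highest being the mitochondria-rich replicate 3. MFAP2, a microfibril protein that can bind Jagged ligands, was lower with siPRMT1 in R5020 (-2.04 ± 0.37, adjusted p = 0.00211) and in ethanol (-1.64 ± 0.38, adjusted p = 0.00676). NOTCH4 had 1 to 8 counts per library and was not tested.

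Of 6 further genes, namely NRARP and others of the HES and HEY families, 3 were tested. A place in these families does not by itself make a gene a Notch target, and this was not tested. HES2, a further HES repressor gene, had 5.78, 5.21 and 6.02 CPM in siPRMT1 R5020, 0.382, 0.213 and 0.408 in siPRMT1 ethanol, 7.27, 8.71 and 8.28 in siCT R5020, and 0.572, 0.501 and 0.656 in siCT ethanol. It rose 16.8-fold in siPRMT1 cells (4.07 ± 0.23, adjusted p = 1.02e-07) and 14.2-fold in siCT cells (3.83 ± 0.22, adjusted p = 1.32e-07), while HES1 fell in siPRMT1 cells. NRARP, a feedback inhibitor induced by Notch, had 8.92, 9.40 and 9.61 CPM in siPRMT1 R5020, 15.5, 15.3 and 16.9 in siPRMT1 ethanol, 22.4, 18.0 and 16.9 in siCT R5020, and 17.6, 13.0 and 13.9 in siCT ethanol. Its 3 siPRMT1 R5020 libraries lay below the other 9. This was also so for HES1, and for genes outside the targets such as NOTCH3 and the corepressor gene L3MBTL3, but not for HES4 and HEY2. How many of all genes show it was not counted.

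NRARP fell with R5020 in siPRMT1 cells (-0.77 ± 0.16, adjusted p = 0.00361) and stood at 0.36 ± 0.15 in siCT cells (adjusted p = 0.155). In R5020 it was lower with siPRMT1 than with siCT (-1.04 ± 0.16, adjusted p = 6.82e-04). The difference between its responses was -1.14 ± 0.22 and was not called (adjusted p = 0.108), with calls under 3 of 18 alternatives. HES5 had at most 2 counts in a library and HEYL had 0 in all 12, which allows up to 3 counts per library.

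**Figure D5:**
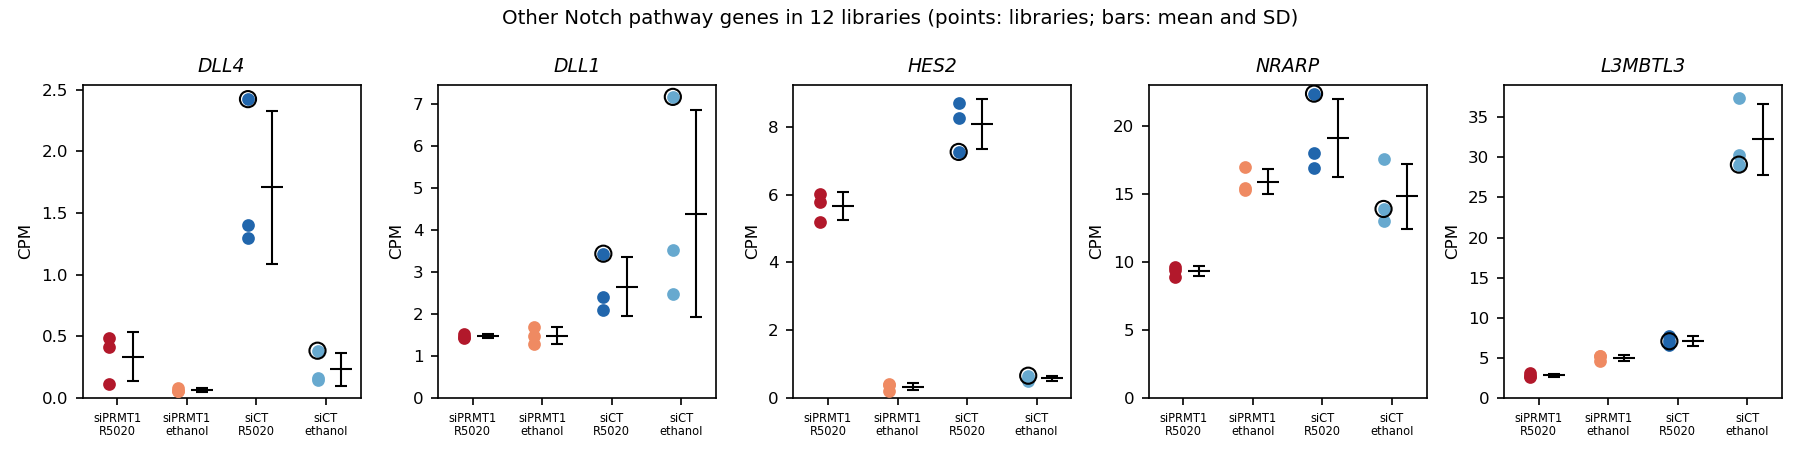
CPM of DLL4, DLL1, HES2, NRARP and L3MBTL3 in each of the 12 libraries (y axis, 1 scale per gene, from 0), by group (x axis); points are libraries, bars the mean and SD of 3 libraries, and ringed points the libraries rich in mitochondrial counts. NRARP is at 8.92 to 9.61 CPM in siPRMT1 R5020, under every other library, and L3MBTL3 is at 29.1 to 37.3 CPM in siCT ethanol, above every other library.

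Of the 13 corepressors tested, L3MBTL3 changed most by adjusted p. It encodes a methyl-lysine reader that binds RBPJ and represses its targets. It had 2.65, 2.77 and 3.06 CPM in siPRMT1 R5020, 4.56, 5.22 and 5.25 in siPRMT1 ethanol, 7.06, 6.56 and 7.71 in siCT R5020, and 30.3, 37.3 and 29.1 in siCT ethanol. The 4 groups did not overlap.

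L3MBTL3 fell with R5020 by 0.82 ± 0.16 on the log2 scale in siPRMT1 cells and by 2.18 ± 0.15 in siCT cells (adjusted p = 0.00226 and 5.96e-07), and its log2 fold change with siPRMT1 was -2.69 ± 0.15 in ethanol and -1.33 ± 0.16 in R5020 (adjusted p = 1.39e-06 and 1.38e-04). The difference between its responses, siPRMT1 minus siCT, was 1.36 ± 0.21 and was called (adjusted p = 0.0345), the 1 call among the 57 genes. It was called under 6 of 18 alternatives, with values of 1.23 to 1.42. Leaving out any 1 of the 6 siPRMT1 libraries, of the 3 siCT R5020 libraries or replicate 1 of siCT ethanol ended the call (adjusted p = 0.0566 to 0.198). TLE2, a Groucho-type corepressor, was lower with siPRMT1 in ethanol (-0.87 ± 0.15, adjusted p = 0.00142) and in R5020 (-0.89 ± 0.15, adjusted p = 0.00152). TLE3, its paralogue, was higher with siPRMT1 in R5020 (1.01 ± 0.20, adjusted p = 0.00380) and in ethanol (0.67 ± 0.20, adjusted p = 0.0223). The ethanol call of TLE3 held under 13 of 19 alternatives and was lost without replicate 2 of siCT ethanol or any 1 siPRMT1 ethanol library (0.54 to 0.69, adjusted p = 0.0584 to 0.0669). The histone deacetylase gene HDAC2 was higher in ethanol (0.98 ± 0.20, adjusted p = 0.00334) and in R5020 (0.69 ± 0.20, adjusted p = 0.0231). Its R5020 call held under 13 of 19 alternatives and was lost without replicate 1 or 2 of siCT R5020 or any 1 siPRMT1 R5020 library (0.58 to 0.73, adjusted p = 0.0535 to 0.0798).

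Among 15 genes of trafficking and degradation, NEURL1B, a ubiquitin ligase for Notch ligands, rose with R5020 in siPRMT1 cells (1.58 ± 0.15, adjusted p = 6.23e-06) and in siCT cells (1.37 ± 0.15, adjusted p = 2.62e-05). With siPRMT1 in R5020 it was higher as well (0.58 ± 0.14, adjusted p = 0.0116), and it stood at 0.37 ± 0.15 in ethanol (adjusted p = 0.0660). DTX2 and DTX1, members of the Deltex family that binds the receptor's intracellular domain, rose with R5020 in siPRMT1 cells (1.21 ± 0.21 and 1.27 ± 0.34, adjusted p = 0.00120 and 0.0210). DTX1, at 7 to 21 counts per library there, lost its call without replicate 1 or 2 of siPRMT1 ethanol or of siPRMT1 R5020 (1.07 to 1.29, adjusted p = 0.0607 to 0.102). In all, 14 of 19 alternatives called DTX1 there. DTX2 stood at 0.40 ± 0.21 in siCT cells (adjusted p = 0.250), and with siPRMT1 in ethanol it was lower (-0.95 ± 0.21, adjusted p = 0.00506), beside -0.14 ± 0.20 in R5020 (adjusted p = 0.635). NUMBL, related to the Notch inhibitor NUMB, was lower with siPRMT1 in ethanol (-1.35 ± 0.23, adjusted p = 0.00109) and in R5020 (-0.81 ± 0.22, adjusted p = 0.0181). The R5020 call of NUMBL held under 14 of 19 alternatives and was lost without replicate 1 or 2 of siCT R5020 or of siPRMT1 R5020 (-0.82 to -0.71, adjusted p = 0.0535 to 0.0855). MIB2, a ligase for Notch ligands, was lower in R5020 (-1.12 ± 0.30, adjusted p = 0.0151) and in ethanol (-1.08 ± 0.30, adjusted p = 0.0163). The ethanol call of MIB2 was lost without replicate 1 of siCT ethanol or replicate 3 of siPRMT1 ethanol (-1.01 and -0.95, adjusted p = 0.0512 and 0.0711). In R5020, MIB2 stood at -0.72 without replicate 1 of siCT R5020, and at -1.11 and -1.09 without replicate 1 or 3 of siPRMT1 R5020 (adjusted p = 0.0602, 0.0507 and 0.0572).

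In the transcription complex, 9 genes were tested. KAT2B, a histone acetyltransferase, rose with R5020 in siPRMT1 cells (0.76 ± 0.16, adjusted p = 0.00413) and in siCT cells (0.59 ± 0.16, adjusted p = 0.0232). The KAT2B call in siCT cells was lost without replicate 1 of siCT ethanol or replicate 2 or 3 of siCT R5020 (0.48 to 0.59, adjusted p = 0.0508 to 0.103). Further alternatives lost it as well, and 14 of 19 called it. With siPRMT1, KAT2B was higher in R5020 (0.53 ± 0.16, adjusted p = 0.0254) and stood at 0.36 ± 0.16 in ethanol (adjusted p = 0.0946). This R5020 call held under 13 of 19 alternatives. Among the losses were the fits without replicate 1 or 2 of siCT R5020 or any 1 siPRMT1 R5020 library (0.45 to 0.54, adjusted p = 0.0664 to 0.0887). MAML2, a Mastermind coactivator, fell with R5020 in siCT cells (-0.88 ± 0.16, adjusted p = 0.00250), stood at -0.25 ± 0.17 in siPRMT1 cells (adjusted p = 0.415), and was lower with siPRMT1 in ethanol (-1.18 ± 0.16, adjusted p = 3.30e-04) and in R5020 (-0.55 ± 0.17, adjusted p = 0.0274). The R5020 call of MAML2 was lost without replicate 2 or 3 of siCT R5020 or of siPRMT1 R5020 (-0.57 to -0.45, adjusted p = 0.0631 to 0.103). Further alternatives lost it as well, and 12 of 19 called it. Of the 9 genes of receptor cleavage, R5020 changed 0 in either kind of cells by edgeR's adjusted p, with 1 at an unadjusted p under 0.05 in siPRMT1 cells and 0 in siCT cells. Over all genes, R5020 gave calls for 15.4% in siPRMT1 cells and 13.0% in siCT cells, and 25.3% in each had such an unadjusted p. With siPRMT1, 3 of them were called lower in ethanol and 2 in R5020, where 19.2% and 14.2% of all genes were called lower. At an unadjusted p under 0.05 (edgeR), 8 were lower in ethanol and 3 in R5020, and 0 were higher in either. In either direction, 44.3% and 39.3% of all genes had such a p. The gamma-secretase subunit gene APH1A was lower in ethanol (-0.80 ± 0.15, adjusted p = 0.00203) and in R5020 (-0.56 ± 0.15, adjusted p = 0.0163). The R5020 call of APH1A was lost without replicate 2 or 3 of siPRMT1 R5020 (-0.51 and -0.56, adjusted p = 0.0812 and 0.0593). Further alternatives lost it as well, and 15 of 19 called it. Of the 5 glycosylation genes, R5020 changed 0 (1 higher and 1 lower at an unadjusted p under 0.05 in siPRMT1 cells, 0 in siCT cells). The shares of all genes are the 15.4%, 13.0% and 25.3% just given for R5020. With siPRMT1, 1 was called higher and 3 lower in ethanol, where 13.6% of all genes were called higher and 19.2% lower. In R5020, 1 was called higher and 0 lower, where 11.5% were called higher and 14.2% lower. At an unadjusted p under 0.05 (edgeR), 1 was higher and 3 lower in ethanol, and 1 higher and 2 lower in R5020. Over all genes, 44.3% in ethanol and 39.3% in R5020 had such a p in either direction.

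The genes nearest in pattern were sought for the 4 Notch genes with most calls, by the root mean square difference of log2 CPM over the 12 libraries after each gene was centred on its own mean. The nearest to NOTCH2 were P4HA2 (0.153), ATP1B1 (0.225) and LMO7 (0.275), beside an SD of 1.23 for NOTCH2 itself. The nearest to JAG1 were SLC25A25 (0.208), CREB3L2 (0.2199) and PPL (0.221), beside an SD of 0.987. For HES1, with an SD of 0.864, they were GPR39 (0.263), TENM3 (0.269) and SULF1 (0.271), and for NOTCH3, with an SD of 0.716, they were KIAA1161 (0.124), CSAD (0.130) and GPR37 (0.131). These distances describe 12 libraries that include the mitochondria-rich pair.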

How the data were processed

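RNA-seq was made from 12 libraries of T47D cells with the Lexogen SENSE kit, per the labels' protocols, and the labels of siRNA and treatment set the groups. The authors deposited whole-number read counts per gene symbol, with no scaling. Build hg19 and the tools HTSeq 0.9.1, Bowtie2 2.3.2.2 and DESeq2 are named in the submitters' processing notes. Roles of the tools and a strand setting are not given in these sources, so reads of antisense or near-identical genes cannot be told apart. The authors also deposited log2 fold changes and adjusted p-values of their own comparisons, quoted only where named. The sign of these was checked against the counts.

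The members and gene lists were chosen with earlier results of these data known. Named pathway genes are up to 8 called ones per comparison with the smallest adjusted p. Counts were filtered with filterByExpr, scaled by TMM and tested with edgeR 4.0.16 in R 4.3.3 (quasi-likelihood, 1 mean per group over 12 libraries, Benjamini-Hochberg over 17727 genes). Calls are at adjusted p under 0.05. CPM values use the TMM-scaled library sizes. Exon lengths, overlaps and gene coordinates are those of GENCODE 29 on GRCh38, and the counts carry no coordinates. The procedure was tested on simulated data, drawn independently for each library with the same spread in every group. The simulated data hold no joint shift like that of the mitochondria-rich pair, so they cannot show how the procedure fares with it. DESeq2 1.42.0, limma 3.58.1 with voom, library totals alone, no filter, a replicate block and fits without libraries were alternatives. Likeness used genes of at least 5 CPM on average and a pseudocount of 0.5 CPM. Counting limits cover counting error only.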

Additional observations from a re-analysis of the deposited data

Results flagged for a closer look

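Across the Notch genes and the rest of the pathway, 1 gene had a called difference between its R5020 responses in siPRMT1 and siCT cells. For L3MBTL3 the difference of responses, siPRMT1 minus siCT, was 1.36 ± 0.21 on the log2 scale (adjusted p = 0.0345 by Benjamini-Hochberg over all genes, edgeR). The R5020 libraries lay below the ethanol libraries with both siRNAs, with 2.65 to 3.06 CPM in siPRMT1 R5020, 4.56 to 5.25 in siPRMT1 ethanol, 6.56 to 7.71 in siCT R5020 and 29.1 to 37.3 in siCT ethanol. DESeq2 called it too (adjusted p = 3.16e-05), and with library totals alone the adjusted p was 0.890.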

How the results depend on the processing

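Over 19 alternatives (18 for the difference between responses), no called value of a Notch gene changed sign. R5020 in siPRMT1 cells gave 3 or 4 calls under each (8.97 to 46.6% of all genes), and NOTCH2 and JAG1 in both kinds of cells and HES1 in siPRMT1 cells were called under every alternative. NOTCH3 with R5020 in siPRMT1 cells was called under 6 of 19. Without the mitochondria-rich pair, R5020 in siCT cells gave 4 calls in place of 2 (19.9% of all genes against 13.0%), and the difference between responses gave 1 call in place of 0 (0.779% of all genes against 0.0790%), as it did with voom weights (0.367%). For siPRMT1 in ethanol, the 3 calls (32.8% of all genes) became 1 with library totals alone (17.0%), and 0 in a fit of only the 6 libraries compared (19.5%), where 3 genes had an unadjusted p under 0.05. Leaving out single libraries gave 0 to 6 calls there: 6 without siCT ethanol replicate 2 (43.4% of all genes), 1 without siCT ethanol replicate 3 (32.003%), siPRMT1 ethanol replicate 2 (20.9%) or any siPRMT1 R5020 library (28.2 to 28.7%), and 0 without siPRMT1 ethanol replicate 1 or 3 (20.2 and 19.3%). For siPRMT1 in R5020, such fits gave 1 to 3 calls in place of 2 (12.9 to 37.5% of all genes against 25.7%). With the replicate number as a block, siPRMT1 in ethanol gave 1 call (27.8% of all genes), NOTCH2 and NOTCH3 being lost (adjusted p = 0.0746 and 0.0612), and no other call of a Notch gene was changed by the block, while L3MBTL3 lost its called difference between responses (1.36, adjusted p = 0.161). The numbers were not taken as a pairing, since 4 of 18 same-numbered pairs had a correlation over 0.1 (range -0.772 to 0.411) and 1 of 12 libraries was closest to its own number. In siCT cells, libraries with different numbers went together. Ethanol replicate 1 went with R5020 replicate 2 (r = 0.687), 2 with 3 (r = 0.726) and 3 with 1 (r = 0.880), the last being the mitochondria-rich pair. No fit used these pairs as a block, and whether they share a batch was not tested. Library totals alone shifted the median of all genes by -0.172 for R5020 in siPRMT1 cells, 0.182 for siPRMT1 in ethanol and -0.144 for the difference between responses. They moved the calls over all genes for R5020 in siPRMT1 cells to 897 higher and 1167 lower, against 1648 and 1077, and those for siPRMT1 in R5020 to 744 and 1685, against 2046 and 2513. There APH1A, DTX2 and TLE2 (siPRMT1 in ethanol), DTX1 and KAT2B (R5020), MAML2 (R5020 in siCT cells), NEURL1B and TLE3 (siPRMT1 in R5020) lost calls. HEY1 could be fitted only with no filter and was not called there (adjusted p = 0.502 or more). Its 0 to 8 counts, and the 24 to 43 of JAG1 in ethanol, limit their precision. The cause of these changes was not tested.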
